A study of Mus musculus with 26 samples.

Results

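The genes described here are 45 genes that act in G2 and mitosis. They were taken by name from a list, each through the brightest of its probe sets that carry a single gene symbol. All 45 were measured, among 19938 genes on the arrays. RNA was read on 26 Affymetrix Mouse Gene arrays, each from murine Ba/F3 cells, a pro-B line that needs interleukin-3 or Hyper-IL-6 to grow. All groups also carry gp130, the signalling chain of the IL-6 receptor family, and all were grown on Hyper-IL-6, then washed and starved without serum for 4 h. Cells with the natural receptors IL-10R2 and IL-22Rα1 were left untreated (n = 4, replicates 2, 3, 4 and 5) or given IL-22 (n = 4, replicates 1, 2, 3 and 5). Cells with synthetic receptors, in which IL-10R2 carries a nanobody (VHH) against mCherry and IL-22Rα1 one against GFP, were left untreated (n = 6, replicates 7, 9, 11, 12, 13 and 14), given a GFP-mCherry fusion (n = 6, the same numbers) or given mCherry-Fc (n = 6, replicates 8, 9, 10, 13, 14 and 15). Proteins were used at 100 ng/ml. The time was 2 h by the general protocol, which allows for other times without naming any for a sample, and no group received a control protein. The labels do not say whether replicates are separate cultures or whether each receptor line is 1 clone, so p-values measure the spread between these arrays, and each receptor type is represented by 1 cell line.

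Cells enter mitosis when CDK1, bound to cyclin A or B and dephosphorylated by the CDC25 phosphatases, becomes active. Polo-like and Aurora kinases then drive chromosome alignment, the spindle checkpoint holds the anaphase-promoting complex until every kinetochore is attached, and the central spindle guides the final cut between daughter cells. Most of the genes involved are transcribed in G2 under FOXM1 and B-MYB and are low in G1, so their summed level in a culture follows the share of cells in G2 and mitosis as well as the transcript content per cell. In RNA from whole cultures, fewer cells in G2 and less RNA per cell cannot be told apart.

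Genes of this class share promoter elements that their choice by name did not use. The cell cycle homology region, searched as TTTGAA, is bound by the DREAM and MYB-MuvB complexes, and the CCAAT box is bound by NF-Y. Both motifs were searched on both strands in the 250 bases before each start in the RefSeq promoter table (GRCm38.p6), which held 40 promoters for 37 of the 45 genes. CCAAT was present in 31 of the 40 (77.5%) against 33.8% of 32851 promoters of the table, and at least 2 CCAAT boxes in 20 (50%) against 10.1%. TTTGAA was present in 16 (40%) against 16% and lay within 100 bases of the start in 9 (22.5%) against 5.77%. Both motifs together were present in 15 (37.5%) against 5.55%. The promoters of 4 genes with small p-values in the comparisons below and at least 1 TTTGAA match are shown to let the 2 elements be seen in place, with TTTGAA and CCAAT, or their reverse complements TTCAAA and ATTGG, in capitals. Each ends at the base before the start. They lie at chr4:117178773-117179022 on the minus strand (Kif2c), chr7:135716380-135716629 on the minus strand (Mki67), chr2:164769679-164769928 on the plus strand (Ube2c) and chr3:27153879-27154128 on the minus strand (Ect2, 1 of its 2 entries).
Kif2c: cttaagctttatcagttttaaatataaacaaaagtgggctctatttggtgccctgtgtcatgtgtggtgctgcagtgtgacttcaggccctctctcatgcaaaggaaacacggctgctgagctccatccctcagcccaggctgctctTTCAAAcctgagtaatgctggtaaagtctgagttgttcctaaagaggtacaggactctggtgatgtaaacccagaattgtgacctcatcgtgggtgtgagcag
Mki67: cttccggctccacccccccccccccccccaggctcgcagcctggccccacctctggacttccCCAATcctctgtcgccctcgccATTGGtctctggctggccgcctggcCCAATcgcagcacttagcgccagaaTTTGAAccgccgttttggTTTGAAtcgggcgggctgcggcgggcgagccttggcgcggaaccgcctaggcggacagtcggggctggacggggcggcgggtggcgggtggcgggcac
Ube2c: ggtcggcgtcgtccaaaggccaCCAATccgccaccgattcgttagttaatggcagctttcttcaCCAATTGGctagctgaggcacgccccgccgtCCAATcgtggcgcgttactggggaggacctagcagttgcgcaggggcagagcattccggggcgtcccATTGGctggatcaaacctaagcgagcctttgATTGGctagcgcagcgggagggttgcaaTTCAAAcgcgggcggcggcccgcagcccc
Ect2: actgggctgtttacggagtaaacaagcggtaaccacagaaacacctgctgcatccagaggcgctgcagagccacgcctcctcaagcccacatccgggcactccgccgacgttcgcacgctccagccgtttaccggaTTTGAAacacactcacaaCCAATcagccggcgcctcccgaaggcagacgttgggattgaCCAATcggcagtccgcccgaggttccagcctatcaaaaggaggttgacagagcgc
The single TTTGAA match of Kif2c begins 103 bases before the start, with no CCAAT in the window. Mki67 has 2 TTTGAA matches, at 116 and 98 bases, below 3 CCAAT boxes at 188, 166 and 141 bases. Ube2c has 1 TTTGAA match 29 bases before the start and 6 CCAAT boxes between 228 and 57 bases, of which those at 186 and 183 bases overlap on opposite strands. Ect2 has 1 TTTGAA match at 114 bases and CCAAT at 96 and 55 bases. These are matches of letters and do not show that a factor was bound.

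Values are log2 intensities as the authors deposited them, so a difference of 1 is a doubling. Arrays of one group correlated at 0.981 to 0.994 across probe sets. Of 10 measured markers of the pro-B lineage, Ptprc (group means 10.58 to 10.82), Cd79a (9.33 to 9.72) and Cd79b (8.80 to 9.08) were bright, while Ebf1, Il7r, Dntt and Rag1 stayed between 3.73 and 5.03 in every group. The mean of the 6 T cell markers was 5.26 to 5.64 in all arrays. Natural receptor arrays numbered 4 and 5 stood apart from the others: Itgam, an integrin chain of myeloid cells, read 11.73 to 12.05 in these 3 arrays, 8.73 to 8.98 in the 5 natural arrays numbered 1 to 3 and 4.72 to 6.02 in synthetic receptor arrays. Mpo, the neutrophil peroxidase, read 10.62 to 11.00, 6.97 to 7.19 and 7.15 to 7.43 in the same order. Adgre1 read 6.62 to 7.06 in natural arrays 4 and 5 against 4.72 to 4.83 in 1 to 3. Lyz2 read 7.53 to 8.21 against 5.11 to 5.24, and Csf1r 6.30 to 6.37 against 5.90 to 6.15. The other markers of the myeloid list, Cd14, Elane and Ly6g, overlapped between these natural arrays. The mean over all 8 myeloid markers spanned 5.80 to 7.47 in natural and 5.18 to 5.47 in synthetic receptor arrays, and the part of this difference in the results below was not tested. Comparisons that use natural receptor cells are therefore given with and without arrays 4 and 5, an alternative chosen after the data were seen.

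**Figure D1:**
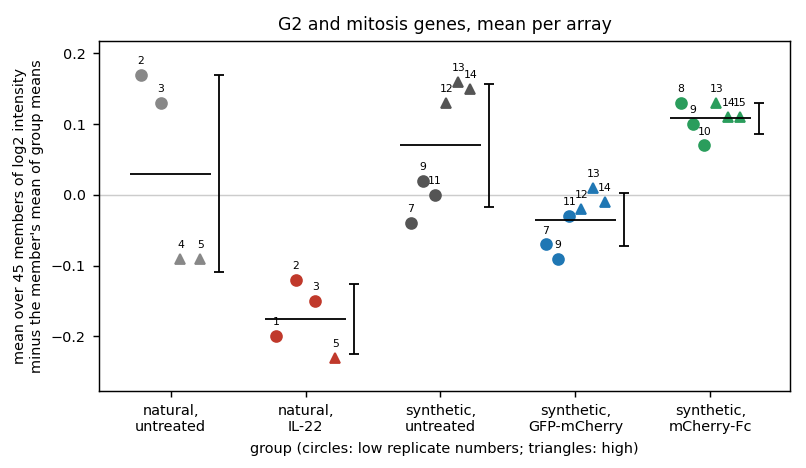
Mean of the 45 G2 and mitosis genes in each array (y axis, log2 intensity after subtracting each gene's mean of the 5 group means), with replicate numbers above the points, horizontal lines at group means and bars of 1 SD. The 4 IL-22 arrays lie from -0.23 to -0.12, below all 4 untreated natural arrays (-0.09 to 0.17), and the 6 GFP-mCherry arrays (-0.09 to 0.01) lie below the 6 mCherry-Fc arrays (0.07 to 0.13).

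The mean of the 45 genes in an array, with each gene centred on its mean of group means, was lowest with IL-22 (-0.17 ± 0.05, SD, n = 4) and highest with mCherry-Fc (0.11 ± 0.02, n = 6). Untreated natural cells averaged 0.03 ± 0.14 (n = 4), untreated synthetic cells 0.07 ± 0.09 (n = 6) and GFP-mCherry cells -0.04 ± 0.04 (n = 6). The median SD of a gene was 0.14 in untreated natural cells and 0.10 with IL-22, and 0.10 in untreated synthetic cells, 0.06 with GFP-mCherry and 0.05 with mCherry-Fc. The spread went with the replicate number, with the largest median differences in the untreated groups. In untreated natural cells 43 of the 45 genes were lower in arrays 4 and 5 than in 2 and 3 (median difference -0.24), whereas in untreated synthetic cells 36 were higher in arrays 12 to 14 than in 7 to 11 (median difference 0.15). With GFP-mCherry 42 were higher in arrays 12 to 14 than in 7 to 11, by a smaller median of 0.06. With mCherry-Fc 25 were higher in the later numbers (median 0.03), and with IL-22 30 were lower in array 5 than in 1 to 3 (median -0.09). Low numbers below are 1 to 3 in natural and 7 to 11 in synthetic cells, and high numbers the rest. The labels do not say what the numbers mean.

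**Figure D2:**
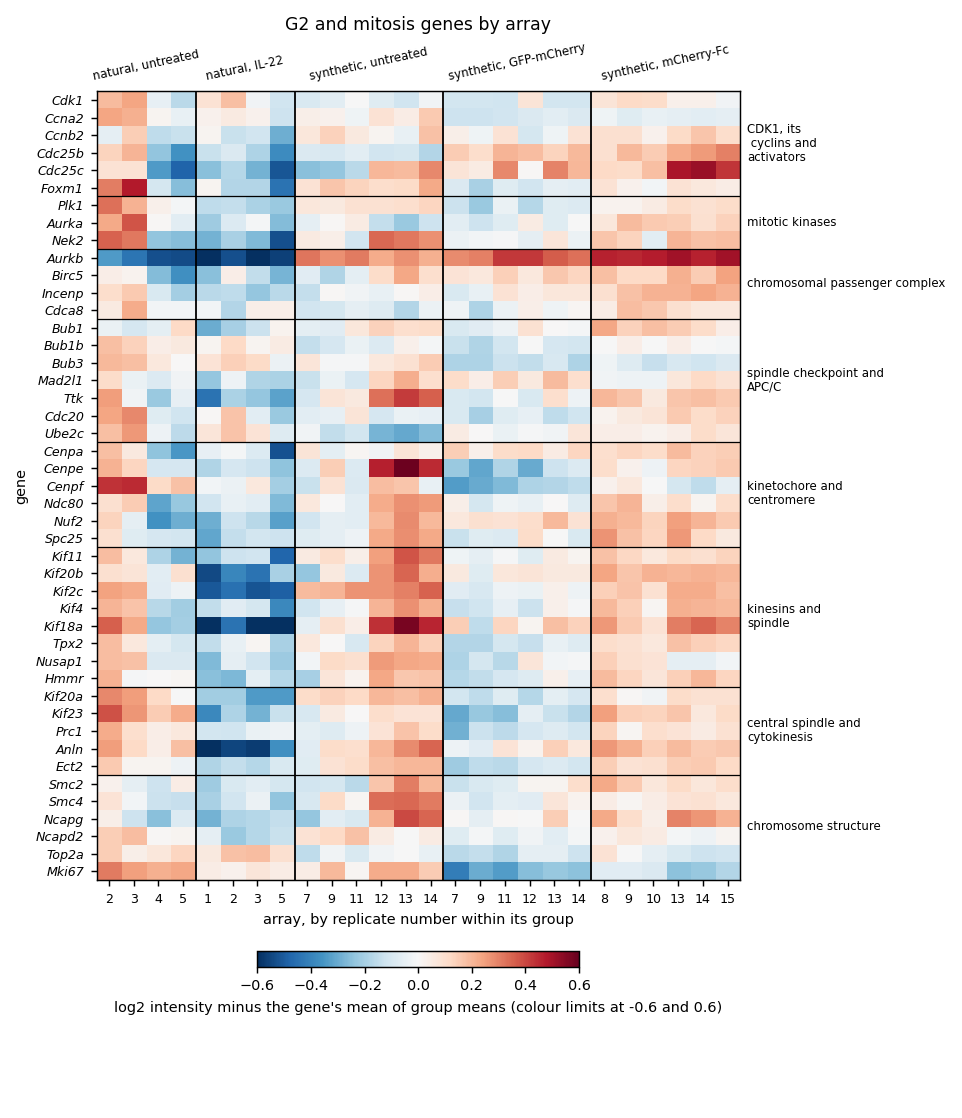
Log2 intensity of each of the 45 genes (rows, by role) in each of the 26 arrays (columns, by group and replicate number), minus the gene's mean of group means, with colours ending at -0.6 and 0.6. Blue rows for Kif2c, Kif18a, Kif20b and Anln mark the IL-22 arrays, Aurkb is blue in all natural and red in all synthetic receptor arrays, and untreated synthetic arrays 12 to 14 are redder than 7 to 11 for Cenpe, Ttk and Kif18a.

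With IL-22 on natural receptors, 15 of the 45 genes fell and none rose, against 11.4% of all genes called in either direction, 5.39% higher and 6.03% lower. The largest falls were in genes that act on microtubules or build the cleavage furrow: Anln, Kif18a, Kif2c and Kif23 dropped by 0.51 to 0.69, or 1.42- to 1.61-fold. Of the 45 differences, 44 lay below 0, with a median of -0.17 against -0.02 over all genes. In 14 genes the IL-22 and untreated arrays did not overlap, a pattern that 11.4% of all genes showed.

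Of the 5 genes of the central spindle and cytokinesis, 4 fell. Anln encodes anillin, the scaffold of the cleavage furrow. It read 10.19, 10.06, 9.98 and 10.12 in untreated replicates 2, 3, 4 and 5 and 9.29, 9.39, 9.37 and 9.57 in IL-22 replicates 1, 2, 3 and 5. Every IL-22 array was below every untreated one, and the difference was -0.69 (SE 0.08, adjusted p = 8.6e-08). Kif23, the kinesin of the centralspindlin complex, read 10.11, 9.99, 9.88 and 9.95 untreated and 9.34, 9.54, 9.44 and 9.59 with IL-22. Its groups were also apart, by -0.51 (SE 0.07, adjusted p = 2.23e-06). Kif20a, which carries the chromosomal passenger complex to the midzone, read 10.55, 10.51, 10.38 and 10.26 untreated and 10.05, 10.05, 9.92 and 9.92 with IL-22. The lowest untreated array was again above the highest treated one (-0.44, SE 0.06, adjusted p = 3.42e-06). Ect2, the exchange factor that activates RhoA at the furrow, fell by 0.19 (adjusted p = 0.0365), and Prc1, the antiparallel microtubule crosslinker, differed by -0.18 without passing the threshold (adjusted p = 0.0695).

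Among 8 kinesins and spindle proteins, 4 fell. Kif2c, which depolymerizes microtubules at centromeres, read 10.45, 10.43, 10.14 and 10.18 in untreated replicates 2, 3, 4 and 5. With IL-22 it read 9.70, 9.76, 9.69 and 9.72 in replicates 1, 2, 3 and 5. The untreated arrays split by number while the treated ones were within 0.03 (SD) of one another, and the difference was -0.58 (SE 0.06, adjusted p = 6.9e-08). Kif18a, which shortens kinetochore microtubules during alignment, read 8.71, 8.58, 8.12 and 8.15 untreated and 7.66, 7.91, 7.75 and 7.62 with IL-22. Here too arrays 4 and 5 were the lower untreated ones and still lay above all treated arrays (-0.65, SE 0.13, adjusted p = 5.32e-04). Kif20b, a kinesin of late cytokinesis, read 9.80, 9.78, 9.64 and 9.80 untreated and 9.16, 9.31, 9.26 and 9.51 with IL-22, with no overlap (-0.44, SE 0.09, adjusted p = 7.77e-04). Hmmr, a spindle assembly factor, fell by 0.24 (adjusted p = 0.0383). Kif11, Kif4, Tpx2 and Nusap1 ranged from -0.21 to -0.12 and did not pass.

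All 3 mitotic kinases fell. Plk1, the polo-like kinase of mitotic entry and cytokinesis, read 11.87, 11.75, 11.57 and 11.53 untreated and 11.39, 11.40, 11.35 and 11.32 with IL-22. Its treated arrays were all lower (-0.31, SE 0.06, adjusted p = 6.23e-04). Aurka, the centrosomal Aurora kinase, and Nek2, which separates centrosomes, fell by 0.28 (adjusted p = 0.0179) and 0.36 (adjusted p = 0.0418), with overlapping groups. Ncapd2, a condensin I subunit, read 10.21, 10.25, 10.07 and 10.08 untreated and 10.01, 9.84, 9.89 and 9.93 with IL-22. That was a separate range and a difference of -0.24 (SE 0.06, adjusted p = 0.00388). Cenpf, a kinetochore protein of G2, fell by 0.34 (adjusted p = 0.00506), Mki67, the coat of mitotic chromosomes known as the Ki-67 antigen, by 0.20 (adjusted p = 0.0252), and Aurkb, the kinase of the passenger complex, by 0.18 (adjusted p = 0.0475).

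Neither CDK1 with its cyclins and activators (0 of 6) nor the spindle checkpoint and its target complex (0 of 7) had a called gene when all natural arrays entered. The cyclins of this group were Ccna2 and Ccnb2, and Ccnb1, cyclin B1, was not among the genes measured. Cdk1 itself differed by -0.02 (95% interval -0.18 to 0.13), Ube2c, the ubiquitin-conjugating enzyme of the anaphase-promoting complex, by 0.00 (-0.15 to 0.15), and Bub1b, the checkpoint kinase-like protein BubR1, by -0.05 (-0.16 to 0.06). Foxm1, the transcription factor of the G2 programme, differed by -0.30 (adjusted p = 0.0609) with its untreated arrays at 9.89, 10.06, 9.48 and 9.33. Its treated arrays read 9.60, 9.41, 9.41 and 9.14, so the groups overlapped.

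With natural arrays 1 to 3 only, 23 genes were called lower and none higher, with a median of -0.26, and 13 of the 15 remained. Hmmr (adjusted p = 0.0595) and Mki67 (0.0627) passed no longer, and Kif2c was at -0.72, Anln at -0.78 and Kif18a at -0.87. The CDK1 and checkpoint groups gained calls there, in Foxm1 (-0.50, adjusted p = 1.2e-05), Cdc25b (-0.30, adjusted p = 0.00205), Ccna2 (-0.19, adjusted p = 0.0296), Ttk (-0.40, adjusted p = 0.026) and Cdc20 (-0.23, adjusted p = 0.0429), while Cdk1 (-0.13) and Ube2c (-0.12) did not pass. With replicates 2, 3 and 5 paired by number, 15 were called, of which 12 were shared: Aurkb (adjusted p = 0.134), Hmmr (0.0917) and Ect2 (0.0974) were lost, and Foxm1, Ttk and Kif4 were gained. Leaving out untreated replicate 2 left 9 calls. Of 8 fits that each left out 1 array, 2 kept the call of Ect2, 3 Nek2, 4 each Aurka, Aurkb and Hmmr, and 5 Mki67. The other called genes kept theirs in all 8. Ect2, Nek2, Aurka, Aurkb, Hmmr and Mki67 also passed no longer when each array was centred on its median. Of 4 measured erythroid markers, 2 also fell with IL-22, the factor Klf1 by 1.12 and the receptor Epor by 0.26. The other 2, Alas2 (5.53 against 5.49 untreated) and Slc4a1 (6.33 against 6.30), were slightly higher and not called. The mean of all 4 markers in an array was 6.63 to 6.74 with IL-22 against 6.93 to 7.09 untreated. Their part in the result was not tested.

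**Figure D3:**
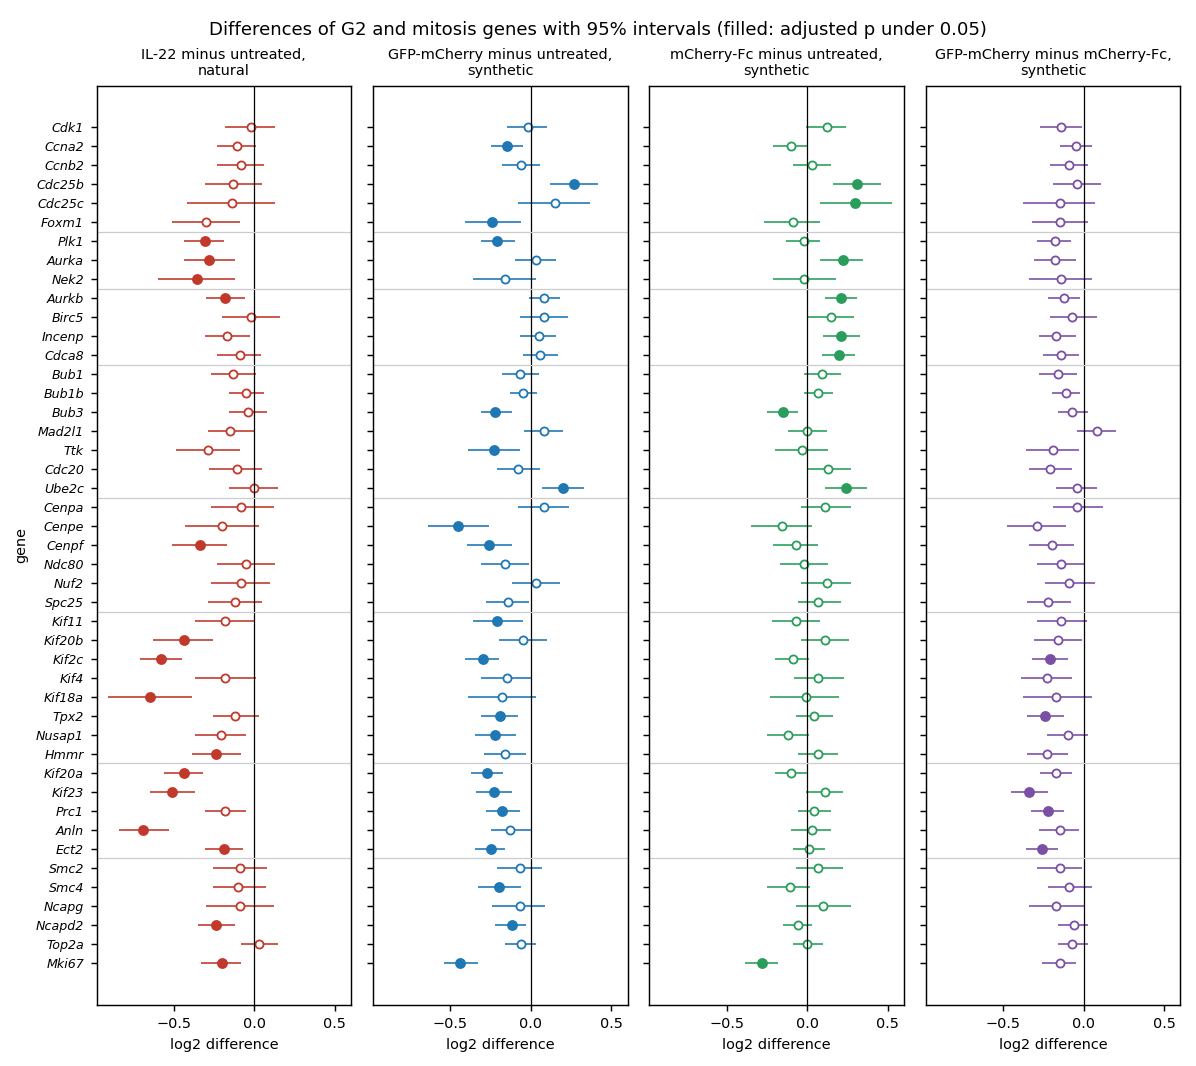
Log2 differences of the 45 genes (rows, by role) in 4 comparisons with 95% intervals, filled where the adjusted p was under 0.05. In the IL-22 panel 15 filled points lie left of 0, in the GFP-mCherry panel 18 lie left and 2 right, in the mCherry-Fc panel 7 lie right and 2 left, and in the panel of GFP-mCherry against mCherry-Fc 44 of 45 points lie left of 0.

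With GFP-mCherry on synthetic receptors, 18 of the 45 genes fell and 2 rose, against 26% of all genes called, 11.8% lower and 14.2% higher. The falls were smaller than the largest ones with IL-22, from 0.12 to 0.45, and Mki67, Kif2c, Kif20a and Ect2 had the smallest p-values. The median was -0.14 against -0.04 over all genes. In 11 genes the arrays did not overlap, against 14.1% of all genes. Genes of the central spindle and cytokinesis fell in 4 of 5 cases, kinesins and spindle proteins in 4 of 8, chromosome structure genes in 3 of 6 and kinetochore genes in 2 of 6.

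Mki67, whose promoter carries both elements shown above, ranged from 11.82 to 12.03 in untreated arrays (median 11.98) and from 11.39 to 11.58 with GFP-mCherry (median 11.53). All 6 treated arrays were below all untreated ones, with a difference of -0.44 (SE 0.05, adjusted p = 2.93e-07). Kif2c ranged from 10.40 to 10.56 untreated (median 10.48) and from 10.11 to 10.24 treated (median 10.18), again apart (-0.30, SE 0.05, adjusted p = 7.83e-05). Kif20a ranged from 10.37 to 10.47 (median 10.42) and from 10.09 to 10.20 (median 10.15). The treated arrays were all lower, and the fall was 0.27 (SE 0.05, adjusted p = 1.69e-04). Ect2 ranged from 10.62 to 10.89 (median 10.83) and from 10.48 to 10.61 (median 10.56), with the groups just apart (-0.25, SE 0.05, adjusted p = 2.75e-04). Bub3, a checkpoint protein that recruits the Bub kinases to kinetochores, ranged from 11.33 to 11.49 (median 11.40) and from 11.15 to 11.24 (median 11.17). Every treated array was lower (-0.22, SE 0.05, adjusted p = 9.43e-04).

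Cenpe, the kinetochore kinesin, gave the largest difference, -0.45 (SE 0.09, adjusted p = 6e-04), but its groups overlapped. It ranged from 9.71 to 10.38 untreated (median 10.09), with replicates 12 to 14 at 10.24 to 10.38, and from 9.48 to 9.71 treated (median 9.59). Kif23 ranged from 9.63 to 9.83 untreated (median 9.80) and from 9.42 to 9.67 treated (median 9.53), overlapping in 1 array of each group (-0.23, SE 0.05, adjusted p = 0.00252). Plk1 ranged from 11.60 to 11.67 (median 11.63) and from 11.32 to 11.50 (median 11.44), with no overlap (-0.21, SE 0.05, adjusted p = 0.00313). The remaining falls were in Cenpf, Prc1, Tpx2, Nusap1, Ccna2 (cyclin A2), Smc4 (the condensin ATPase), Ttk (the checkpoint kinase Mps1), Foxm1, Kif11 (the kinesin that pushes spindle poles apart) and Ncapd2, by 0.12 to 0.26. Of 12 fits that each left out 1 array, 2 kept the call of Ncapd2, 3 Foxm1, 4 Kif11, 5 Ttk and 7 Smc4. Ccna2 kept its call in 11 and the rest of these genes in all 12. Within low replicate numbers Prc1, Tpx2, Smc4, Ttk and Kif11 passed no longer.

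The 2 rises were in Cdc25b and Ube2c. Cdc25b, the phosphatase that starts CDK1 activation in G2, ranged from 8.75 to 8.86 untreated (median 8.82) and from 9.03 to 9.13 with GFP-mCherry (median 9.10), and rose by 0.27 (SE 0.07, adjusted p = 0.0062). Ube2c ranged from 9.43 to 9.72 (median 9.53) and from 9.70 to 9.81 (median 9.74), and rose by 0.20 (SE 0.06, adjusted p = 0.0201). Cdc25b was separate between groups and Ube2c overlapped in a single untreated array. Within low replicate numbers Ube2c passed no longer. No gene of the chromosomal passenger complex was called (0.05 to 0.08).

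The split of calls depended on scaling. When each array was centred on its median, which moved the differences of all genes up by 0.078, 5 genes were lower and 3 higher with a median of -0.07, and Mki67, Kif2c, Kif20a, Ect2, Cenpe, Cdc25b and Ube2c remained. After quantile normalization, 25 were lower and none higher. Among erythroid markers Klf1 fell by 0.40 and Epor rose by 0.26, with array means of 7.03 to 7.11 for the 4 against 7.03 to 7.30 untreated, and their part was not tested.

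With mCherry-Fc on the same receptors, 7 genes rose and 2 fell. These 20% of the members compare with 26.9% of all genes called, 14% higher and 13% lower, so the share was no larger than the background. The 7 rises were in Aurka, Aurkb, Incenp, Cdca8, Cdc25b, Cdc25c and Ube2c, and the median of the 45 was 0.04. In 11 genes the arrays did not overlap, against 11.3% of all genes. The shared untreated arrays enter this comparison and the one with GFP-mCherry alike, so the 2 are not independent.

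In the passenger complex, 3 of 4 genes rose. Aurkb ranged from 10.31 to 10.42 untreated (median 10.37) and from 10.55 to 10.60 with mCherry-Fc (median 10.57). The groups did not overlap (0.21, SE 0.05, adjusted p = 0.0028). Incenp, the scaffold that activates Aurora B, ranged from 9.57 to 9.75 (median 9.71) and from 9.81 to 9.95 (median 9.92), and Cdca8, the subunit borealin, from 8.85 to 8.99 (median 8.93) and from 9.07 to 9.21 (median 9.10). Neither overlapped, and they rose by 0.21 (SE 0.06, adjusted p = 0.00598) and 0.20 (SE 0.05, adjusted p = 0.00757). Birc5, the subunit survivin, differed by 0.15 without passing (adjusted p = 0.125). Aurka ranged from 9.46 to 9.73 (median 9.59) and from 9.75 to 9.87 (median 9.83), and rose by 0.22 (SE 0.06, adjusted p = 0.0149).

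Cdc25b ranged from 9.02 to 9.23 with mCherry-Fc (median 9.13), above all untreated arrays, and rose by 0.31 (SE 0.07, adjusted p = 0.00236). Ube2c, from 9.76 to 9.85 (median 9.78), also lay above all untreated arrays and rose by 0.24 (SE 0.06, adjusted p = 0.00582). Cdc25c, the phosphatase that completes CDK1 activation, rose by 0.30 (SE 0.11, adjusted p = 0.0424) with overlapping groups. Mki67 ranged from 11.56 to 11.74 (median 11.68) and fell by 0.28 (SE 0.05, adjusted p = 1.68e-04), and Bub3, from 11.20 to 11.31 (median 11.25), fell by 0.15 (SE 0.05, adjusted p = 0.017). Both were below every untreated array. No kinesin, kinetochore or cytokinesis gene was called.

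Scaling changed most of these calls. Centring on array medians, which moved the differences of all genes up by 0.095, gave 13 higher and 1 lower with a median of 0.14, and quantile normalization gave 1 higher (Aurkb) and 8 lower with a median of -0.04. Aurkb and Mki67 kept their calls and directions in both. With replicates 9, 13 and 14 paired by number, Incenp (adjusted p = 0.0548) and Bub3 (0.0621) passed no longer. Of the markers of other cells, 2 of 6 for T cells (Cd3e and Cd4), 2 of 6 for mast cells (Tpsab1 and Mcpt8) and Klf1 fell by 0.20 to 0.27 and Epor rose by 0.25. Other markers of these lists went the other way without being called. Ms4a2 of the mast cell list averaged 7.46 against 7.17 untreated, and Cd3g of the T cell list 4.55 against 4.45. The part of these markers was not tested.

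**Figure D4:**
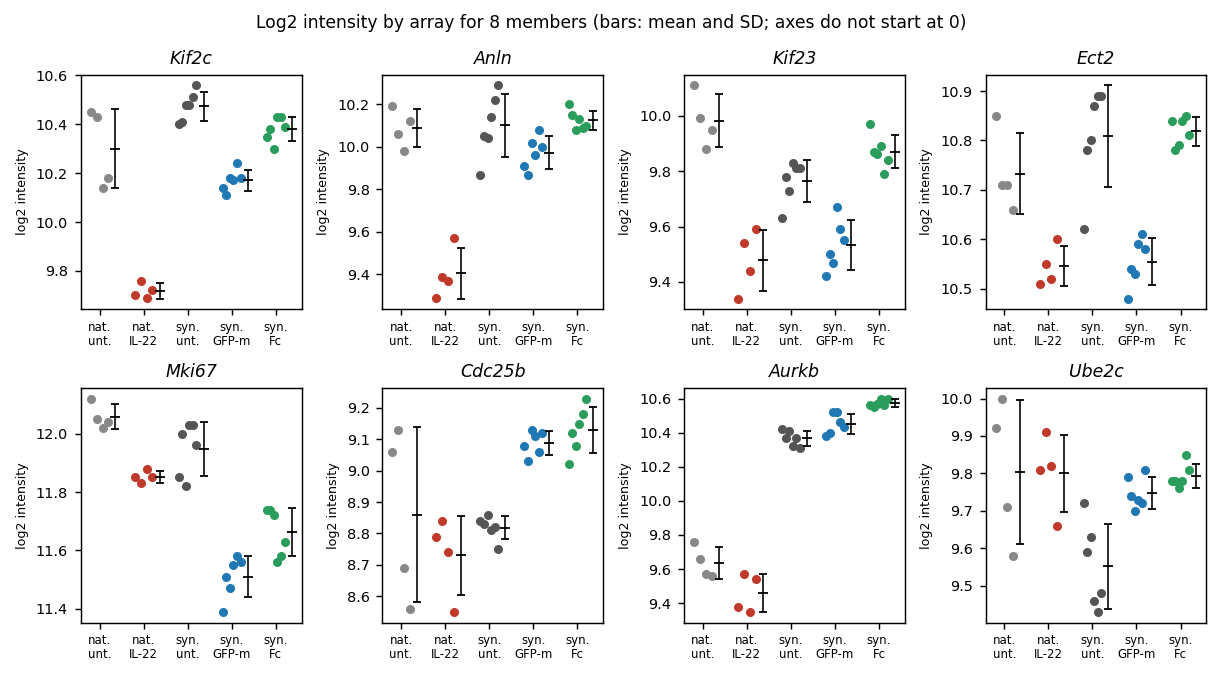
Log2 intensity of 8 genes (y axes, which do not start at 0) in each array of the 5 groups (x axis, natural or synthetic receptors, untreated or with IL-22, GFP-mCherry or mCherry-Fc), with bars of mean and SD. Kif2c, Anln and Kif23 are lowest with IL-22, Kif23 and Ect2 are lower with GFP-mCherry than with mCherry-Fc in all 6 arrays, and Aurkb is higher in every synthetic than in every natural receptor array.

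GFP-mCherry, which can engage both synthetic chains, was set directly against mCherry-Fc, whose only nanobody target is on the IL-10R2 chain. Levels were lower with GFP-mCherry in 44 of the 45 genes, while over all genes 9787 of 19938 were lower. The differences were small, with a median of -0.15 and a range of -0.34 to 0.08, and 5 genes fell with none higher, against 1.09% of all genes called, 0.722% higher and 0.371% lower. At an unadjusted p under 0.05 stood 26 of the 45, against 8.78% of all genes. In 19 of the 45 the 2 groups did not overlap, a pattern seen in 2.96% of all genes. The median was -0.14 after quantile normalization and -0.17 after centring, where Kif23 and Ect2 alone passed and Prc1 (adjusted p = 0.111), Tpx2 (0.109) and Kif2c (0.144) did not.

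Of the 5 called genes, 3 act at the central spindle. Kif23 ranged from 9.42 to 9.67 with GFP-mCherry (median 9.53) and from 9.79 to 9.97 with mCherry-Fc (median 9.87), a difference of -0.34 (SE 0.05, adjusted p = 4.38e-04). Ect2, which Kif23's complex recruits to the midzone, ranged from 10.48 to 10.61 (median 10.56) and from 10.78 to 10.85 (median 10.82), a difference of -0.26 (SE 0.05, adjusted p = 0.00205). Neither gene overlapped between the ligands. Prc1 ranged from 9.28 to 9.49 (median 9.45) and from 9.58 to 9.70 (median 9.65), lower by a difference of -0.22 (SE 0.05, adjusted p = 0.022). Tpx2, the activator of Aurora A on the spindle, ranged from 10.50 to 10.63 (median 10.55) and from 10.74 to 10.85 (median 10.79), and Kif2c from 10.11 to 10.24 (median 10.18) and from 10.30 to 10.43 (median 10.39). Both were lower in all GFP-mCherry arrays, by -0.24 (SE 0.06, adjusted p = 0.0272) and -0.21 (SE 0.05, adjusted p = 0.0367).

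All 5 central spindle genes had separate groups here. Kif20a and Anln, the other two, differed by -0.17 (adjusted p = 0.102) and -0.15 without passing. The gene with a positive difference was Mad2l1, the checkpoint protein Mad2, at 0.08 (95% interval -0.04 to 0.20). In the CDK1 group, Cdk1 differed by -0.14 (95% interval -0.27 to -0.02) and Ccnb2, cyclin B2, by -0.09 (-0.21 to 0.03), neither past the threshold.

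With replicates 9, 13 and 14 paired by number, only Kif23 was called (-0.29, adjusted p = 0.0413), and Ect2 was at -0.24 (adjusted p = 0.151). Leaving out GFP-mCherry replicate 7 or 11 or mCherry-Fc replicate 8 or 15 left 2 calls, and leaving out GFP-mCherry replicate 9 or 12 or mCherry-Fc replicate 13 or 14 left 3. Within low numbers 16 genes were called lower and within high numbers 10, with none higher in either.

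Untreated synthetic and untreated natural receptor cells differed most in Aurkb. It read 9.76, 9.66, 9.57 and 9.56 in the 4 natural arrays and ranged from 10.31 to 10.42 in the 6 synthetic ones (median 10.37). The lines were separated by 0.73 (SE 0.05, 95% interval 0.62 to 0.84, adjusted p = 9.24e-11), a 1.66-fold higher level, and the 18 synthetic arrays, treated or not, all lay above the 8 natural ones. The difference was 0.66 (adjusted p = 8.54e-08) with natural arrays 1 to 3 only. Of the 45 genes, 4 were higher and 5 lower in synthetic cells, against 15.2% of all genes called, 8.6% higher and 6.62% lower. In 5 of the 45 the untreated arrays did not overlap, against 10% of all genes.

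The higher genes beside Aurkb were Kif2c (0.17), Smc4 (0.22) and Kif11 (0.24), and the lower ones were Ube2c (-0.25), Kif23 (-0.22), Cenpf (-0.27), Bub1b (-0.16) and Aurka (-0.22). Kif23 and Bub1b had separate groups, and the rest of these overlapped. Apart from Aurkb, the counts of higher and lower calls moved with the replicate numbers. Low-numbered arrays alone gave 1 higher and 19 lower, high-numbered arrays 24 higher and 1 lower, and natural arrays 1 to 3 against all untreated synthetic arrays 1 higher and 11 lower. In that last setting the 5 lower genes named above stayed called, from Ube2c and Cenpf at -0.41 to Bub1b at -0.22 (adjusted p = 0.016). Kif2c, Smc4 and Kif11 passed no longer there. Of the 8 myeloid markers, 4 were lower in synthetic cells, with a median of -0.82 over the 8 and -4.75 for Itgam. Of the 4 erythroid markers 1 was called, Klf1, higher by 0.57. The count fell to 5 without natural replicate 3 or without synthetic replicate 12, 13 or 14.

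The change with each synthetic ligand was then compared with the change with IL-22. The GFP-mCherry change was higher, meaning less of a fall or more of a rise, in 7 genes and lower in 1, against 13.6% of all genes called, 9.23% higher and 4.4% lower. Anln differed by 0.56 (SE 0.10, adjusted p = 1.8e-04), having differed by -0.13 with GFP-mCherry (adjusted p = 0.128) and fallen by 0.69 with IL-22. Cdc25b differed by 0.40, Kif20b by 0.39, Aurka by 0.31, Kif2c by 0.28, Kif23 by 0.27 and Aurkb by 0.26, and Mki67 by -0.23, which was called in 10 of 33 alternative settings. Kif20a, which fell with both ligands, gave no called difference (0.17, adjusted p = 0.152). With natural arrays 1 to 3 only, 14 were higher and none lower. Leaving out IL-22 replicate 1 or untreated natural replicate 2 or 3 left 3 calls, leaving out IL-22 replicate 3 left 4, and leaving out GFP-mCherry replicate 12 or 14 left 5.

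The mCherry-Fc change was higher than the IL-22 change in 13 genes and lower in none, against 13.4% of all genes called, 8.76% higher and 4.6% lower. The median over the 45 was 0.21 against -0.02 over all genes. With arrays paired by number, 17 were higher, of which 12 were shared: Hmmr was lost (0.27, adjusted p = 0.139) and Cdc25c, Foxm1, Nek2, Cdc20 and Cenpa were gained. Anln (0.71, SE 0.10, adjusted p = 7.24e-06), Kif23 (0.61, SE 0.09, adjusted p = 1.27e-05) and Kif2c (0.49, SE 0.08, adjusted p = 1.24e-04) had the smallest p-values, and the others called were Kif18a (0.64), Kif20b (0.55), Aurka (0.49), Cdc25b (0.44), Aurkb (0.39), Incenp (0.38), Kif20a (0.34), Hmmr (0.30), Plk1 (0.29) and Cdca8 (0.29). All 5 central spindle genes were above 0 here, and 3 were called. With natural arrays 1 to 3 only, 26 were higher and none lower.

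Other genes of the same pathways were read from lists chosen by function, with earlier results of these data known. With IL-22, 19 of 67 further M phase genes (28.4%) fell and none rose, against 6.03% of all genes called lower, among them Ccnf, the cyclin F of an SCF ubiquitin ligase (-0.77, adjusted p = 5.71e-10), Cdca2, a phosphatase 1 subunit of anaphase chromatin (-0.73, adjusted p = 1.11e-08), and the kinesin Kif18b (-0.55, adjusted p = 1.36e-07). In the DREAM and MYB-MuvB complexes, 2 of 14 fell: Rbl2, the pocket protein p130 of quiescent cells (-0.56, adjusted p = 2.71e-04), and Lin52 (-0.25, adjusted p = 0.0156). Inhibitors fell as well, namely 3 of 12 measured genes (25%) of G2 arrest and CDK1 inhibition. They were Wee1, the kinase that restrains CDK1 (-0.64, adjusted p = 2.32e-08), Cdkn1b, the inhibitor p27 (-1.29, adjusted p = 6.61e-07), and Ccng2, cyclin G2 (-1.97, adjusted p = 5.85e-05). Cdkn1a and Trp53 of that list were not measured. Of 16 subunits and activators of the anaphase-promoting complex 2 (12.5%) fell, Fzr1 (-0.26) and Anapc7 (-0.25), and of 13 cohesin genes 2 (15.4%) fell, Esco2 (-0.66) and Smc3 (-0.32). The DREAM, anaphase-promoting complex and cohesin lists lay near the 11.4% of all genes called in either direction, so their counts are given as values only.

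With GFP-mCherry the further M phase genes went both ways, with 10 of 67 higher and 14 lower (35.8% called, against 26% of all genes). Ncapd3, a condensin II subunit (-0.30), Kif18b (-0.34) and Ckap2l, a spindle protein (-0.33), had the smallest p-values. Of 16 subunits of the anaphase-promoting complex, 5 rose and none fell (31.2%, near that share), and the smallest p-values were those of Anapc11, its catalytic RING subunit (0.36, adjusted p = 5.96e-05), Anapc13 (0.40, adjusted p = 7.14e-05) and Anapc7 (0.31, adjusted p = 2.94e-04). With mCherry-Fc, 16 of the 67 further M phase genes rose and 4 fell (29.9%, near the 26.9% of all genes), with the smallest p-values in Ccnf (0.28), Cdca3 (0.27) and Cenpt (0.31). The same 3 complex subunits were among its 4 rises of 16 (25%, no larger than that share), with Anapc7 at 0.35, Anapc11 at 0.33 and Anapc13 at 0.33. Mybl2, which encodes B-MYB, rose by 0.28 with mCherry-Fc (adjusted p = 0.0179).

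Between the 2 synthetic ligands, limma called none of the 67 further M phase genes, with 20 at an unadjusted p under 0.05, 52 below 0 and a median of -0.08. The 45 genes of DNA replication and S phase had no call either, 5 at an unadjusted p under 0.05, 26 below 0 and a median of -0.01. Over all genes 8.78% stood at an unadjusted p under 0.05. Against untreated cells, that S phase list had a median of 0.09 with either synthetic ligand and of -0.06 with IL-22. Its counts were 10 higher and 1 lower with GFP-mCherry, 10 higher and 1 lower with mCherry-Fc, and 3 higher and 10 lower with IL-22, beside 2 and 18, 7 and 2, and 0 and 15 for the G2 and mitosis genes. The 11 called S phase genes with either synthetic ligand are 24.4% of the list, no larger than the 26% of all genes with GFP-mCherry and 26.9% with mCherry-Fc. The 13 with IL-22 are 28.9%, against 11.4% of all genes. Cdt1, the origin licensing factor, fell with IL-22 (-0.60, adjusted p = 1.88e-05), and Gins2 of the replicative helicase fell with GFP-mCherry (-0.32) and mCherry-Fc (-0.38), where Mcm5, a helicase subunit, rose (0.27 and 0.25).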

How the data were processed

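Expression Console 4.0 was used by the authors, per the labels, to make the deposited log2 values, one per probe set and array, from core gene or exon analysis. The algorithm and any background correction are not given in the sources used here. Of 35556 probe sets, 21789 carried 1 symbol in the supplied annotation, 1621 several and 12146 none. The brightest single-symbol probe set stood for each of 19938 genes, with no filter. One model of all 26 arrays in 5 groups was fitted with limma 3.58.1 (lmFit and eBayes, R 4.3.3) and tested on simulated data. P-values are two-sided, adjusted by Benjamini-Hochberg over all 19938 genes, with a threshold of 0.05. Rose and fell describe genes past it. The members and lists were chosen with earlier results of these data known. The members with the smallest p in a comparison, up to 8, are given by array, and at most 3 genes of each further list are named.

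Same-numbered arrays deviated together in natural cells (correlations 0.378, 0.313 and 0.621), for untreated against mCherry-Fc (0.26, 0.466 and 0.326) and for GFP-mCherry against mCherry-Fc (0.22, 0.271 and 0.105), so the paired fit is given beside those results where it changed calls. For untreated against GFP-mCherry they did not (-0.146 to 0.417). Alternatives covered scaling, filters, the variance prior, array weights, blocks, number ranges and leaving out each array. Arrays carry no read depth, so their number limits the precision.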

Additional observations from a re-analysis of the deposited data

Results flagged for a closer look

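In 14 of 230 groups of one gene's values, 1 array lay far from the others for the range of its group, where chance gives about 1 in 20. With GFP-mCherry, Cdk1 read 9.57 in replicate 12 against 9.37 to 9.38 in the other 5, Nuf2 10.02 in replicate 13 against 9.89 to 9.93, Ncapg 9.77 in replicate 13 against 9.57 to 9.63, Cdca8 8.84 in replicate 9 against 8.99 to 9.06, and Kif20b 9.63 in replicate 9 against 9.76 to 9.78. With mCherry-Fc, all 3 such values were in replicate 10 and low: Nek2 at 9.72 against 9.92 to 9.99, Ttk at 9.73 against 9.83 to 9.87, and Kif4 at 9.44 against 9.57 to 9.64. In untreated synthetic cells, Cdc20 read 9.92 in replicate 11 against 9.74 to 9.80.

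With IL-22, Incenp read 9.48 in replicate 3 against 9.55 to 9.56, Cenpa, the centromeric histone, 10.08 in replicate 5 against 10.52 to 10.59, and Spc25, a subunit of the Ndc80 complex, 8.55 in replicate 1 against 8.72 to 8.75. In untreated natural cells, Kif20b read 9.64 in replicate 4 against 9.78 to 9.80, and Hmmr 10.48 in replicate 2 against 10.26 to 10.28.

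Changes with a synthetic ligand differed from those with IL-22 past the threshold in 21 of 90 tests of the difference with limma. For GFP-mCherry these were Anln (0.56), Cdc25b (0.40), Kif20b (0.39), Aurka (0.31), Kif2c (0.28), Kif23 (0.27), Aurkb (0.26) and Mki67 (-0.23). For mCherry-Fc they were Anln (0.71), Kif18a (0.64), Kif23 (0.61), Kif20b (0.55), Aurka (0.49), Kif2c (0.49), Cdc25b (0.44), Aurkb (0.39), Incenp (0.38), Kif20a (0.34), Hmmr (0.30), Plk1 (0.29) and Cdca8 (0.29). The receptor lines differ between the responses compared.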

How the results depend on the processing

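Counts of called members, out of 45, were recomputed under each alternative. Centring on array medians gave 9 for IL-22, 8 for GFP-mCherry, 14 for mCherry-Fc, 2 for GFP-mCherry against mCherry-Fc and 2 between the untreated lines. Quantile normalization gave 5 for GFP-mCherry minus IL-22. With only the groups compared in the fit, counts were 6 for IL-22, 15 between the ligands, 1 between the lines and 4 for GFP-mCherry minus IL-22, and with array weights 12 between the ligands.

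Within low replicate numbers, counts were 30 for IL-22, 15 for mCherry-Fc, 16 between the ligands, 20 between the lines, 21 for GFP-mCherry minus IL-22 and 38 for mCherry-Fc minus IL-22. Within high numbers, where IL-22 has 1 array that is assumed to vary like the others, they were 6, 16, 10, 25, 3 and 8 in that order. With the number range as a term they were 27, 14 and 11 for the first 3, then 16 and 27 for the differences of responses. Natural arrays 1 to 3 only, with 2 untreated arrays among them, gave 23 for IL-22, 14 for GFP-mCherry minus IL-22 and 26 for mCherry-Fc minus IL-22. Between the lines the sign of some genes turned, here given for those called in the main fit or in the alternative. Within low numbers Cdc25c was -0.30, Foxm1 -0.26, Nek2 -0.34, Kif11 -0.06, Kif2c -0.01, Kif4 -0.25 and Smc4 -0.02. Within high numbers Cdc25b was 0.16, and with natural arrays 1 to 3 only Foxm1 was -0.25. Signs also turned in genes called in neither fit, such as Nek2 (-0.18) and Cdc25c (-0.09) with natural arrays 1 to 3 only. The cause was not tested.

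The replicate number as a fixed block gave 1 call between the ligands and as a random block 8. For GFP-mCherry against untreated, whose numbers did not pair the arrays, the fixed block gave 21 calls, and for GFP-mCherry minus IL-22 it gave 9, without Mki67. It moved no other count by over 1.5 times. Leaving out each array gave 9 to 17 for IL-22, 15 to 21 for GFP-mCherry, 8 to 10 for mCherry-Fc, 2 to 5 between the ligands, 5 to 13 between the lines, 3 to 10 for GFP-mCherry minus IL-22 and 11 to 17 for mCherry-Fc minus IL-22. Over all members and alternatives, 7417 single results kept their side of the threshold, 313 were called no longer and 361 became called. Another 9, called in the main fit or in the alternative, reversed. Changes of direction in results called in neither fit are counted among the 7417.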

Other observations

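Aurkb, the gene with the largest difference between the untreated lines, was set beside the genes next to it in the reference order, which were chosen after its value was seen. Borcs6, a subunit of the lysosomal BORC complex, was lower in untreated synthetic than in untreated natural cells, at 6.90 ± 0.08 (SD, n = 6) against 7.72 ± 0.20 (SD, n = 4), with no overlap and a difference of -0.82. Ctc1, a telomere protein, differed by -0.16, Tmem107, a protein of the ciliary transition zone, by 0.13 and Pfas, an enzyme of purine synthesis, by -0.05, all with overlapping groups. A second, dimmer probe set of Top2a, topoisomerase II, had group means of 6.19 to 6.65, with untreated natural cells highest and mCherry-Fc lowest, and SDs of 0.17 to 0.35.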
